A study of Mus musculus with 2 samples.

Results

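Carbonic anhydrases are described here in the embryonic mouse liver through 10 genes of the family: Car1, Car2, Car3, Car4, Car5a, Car5b, Car8, Car9, Car12 and Car14. They were taken by gene symbol, not by level, and are 10 of 43346 mouse genes in the deposited tables. The other 6 carbonic anhydrase genes of the mouse were read beside them. Total RNA was sequenced from livers of B6NCrl embryos at embryonic day 11.5 (E11.5), as 2 libraries in 1 group. Replicate 1 came from a pool of 109 embryos and replicate 2 from another pool, of a size not given in the sources used here. Each pool mixed male and female embryos. Each library began with 10 ng of RNA extracted with a mirVana kit, with control RNAs spiked in and a library protocol titled after Smart-seq, which is meant for low RNA input. No treatment, mutant or control group was part of the series, so levels within 1 tissue and differences between 2 pools could be described and no condition could be tested.

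Carbonic anhydrases turn carbon dioxide and water into bicarbonate and a proton, and back. Most are zinc enzymes. In red cells the cytosolic forms let carbon dioxide from the tissues be carried in blood as bicarbonate, which leaves the cell through the anion exchanger. Mitochondrial forms supply bicarbonate to carboxylating enzymes, and membrane-bound forms act on the outer face of the cell. The fetal liver at this stage is a site of red cell formation as well as of early liver growth.

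Promoter sequence was given by RefSeq (GRCm38.p6) for 6 of the 10 members: Car4, Car5a, Car5b, Car9, Car12 and Car14. The 250 bases before each start were searched on both strands for ACGTG, the core letters bound by hypoxia-inducible factors and read as CACGT on the other strand. The letters occurred in 2 of the 6, Car9 and Car14, and in 16.6% of 32851 RefSeq promoters of the same length. Car9 is a textbook target of those factors. The stretches of 30 bases around both matches are shown 5′ to 3′ on the strand of each gene, with the matched letters in capitals.
Car9, chr4:43506995-43507024, plus strand: cctatttccgatgCACGTacagcccgtcca
Car14, chr3:95904686-95904715, minus strand: agcccaggcaccacccccctcctCACGTac
The match ended 14 bases before the RefSeq start in Car9 and 3 bases before it in Car14. GENCODE places the starts further upstream, at 43506966 for Car9 and 95904691 for Car14, so by that annotation the match of Car9 lies inside the first exon and that of Car14 spans the start. Such a match is a run of letters and was not measured as a bound site. AGATAA, a form of the site bound by GATA factors, occurred in 0 of the 6 and in 9.99% of all promoters. TATAAA occurred in 0 of the 6 and in 12.4%.

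Levels are in TPM, a share of all transcripts that corrects for transcript length and is relative to everything counted in a library, spike-ins included. Unless a library is named, values are the mean ± SD of 2 libraries (n = 2). Detection meant a TPM of at least 1 in each library. By this rule 7 of the 10 members were detected, against 56.6% of 21474 protein-coding genes and 31.1% of all mouse genes. The detected members were Car2, Car1, Car14, Car4, Car3, Car8 and Car9, in order of falling level. Car5a, Car12 and Car5b lay below a TPM of 1 in both libraries. The median over the 10 members was 2.00 TPM, beside a median of 2.85 ± 0.04 TPM over all protein-coding genes.

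The cytosolic enzymes are given first, though not all of them had the highest levels. Car2, the fast and widely expressed cytosolic form (ENSMUSG00000027562.8, chromosome 3, 14886273 to 14900770, plus strand), had 979 TPM in replicate 1, and in replicate 2 it had 1126.5 TPM. These levels rested on 41966 and 42315 estimated counts, and replicate 2 was higher, with deposited intervals of 948 to 967 and 1088 to 1109 TPM that did not meet. Counting Car2 itself, 97 protein-coding genes in replicate 1 and 79 in replicate 2 had a TPM as high. Car2 held 94.1% of the TPM of all 10 members in replicate 1 and 94.4% in replicate 2 (94.3% ± 0.3). Car2 set the level of the family in both pools.

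Car1, the other red cell form and in humans a product mainly of later stages, reached 25.1 TPM in replicate 1 and 25.7 TPM in replicate 2 (ENSMUSG00000027556.11, chromosome 3, 14766216 to 14808368, minus strand). Its 677 and 601 estimated counts gave nearly the same level in both pools. Car2 exceeded Car1 41.2-fold. Folds between genes are ratios of TPM plus a pseudocount of 0.1 TPM, which understates folds over low genes. Car3, known from adult muscle, fat and liver and a weak enzyme (ENSMUSG00000027559.5, chromosome 3, 14863512 to 14872523, plus strand), had 2.41 and 2.84 TPM on 96 and 100 estimated counts. Car1 exceeded Car3 9.38-fold, and Car2 exceeded it 387-fold. With Car2 set aside, Car1 made up 39.7% ± 1.3 of what the other members held. The 3 genes are neighbours. Car13, Car1, Car3 and Car2 were the only protein-coding genes in a stretch of 259044 bases on chromosome 3, and the gap from Car3 to Car2 was 13749 bases. Car13, also cytosolic, had 2.01 ± 0.13 TPM, and its deposited intervals overlapped those of Car3 in both libraries.

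**Figure D1:**
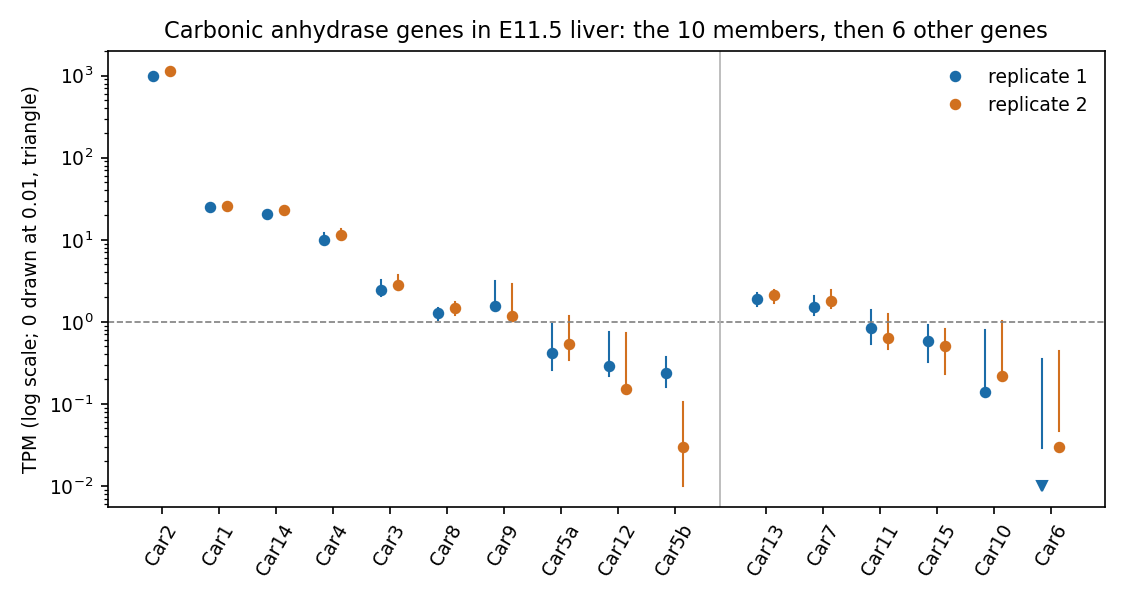
TPM (log scale) of the 10 members, left of the grey line, and of the 6 other carbonic anhydrase genes, right of it, with 1 point for each of the 2 libraries; lines are the deposited intervals, the triangle marks a 0, and the dashed line is a TPM of 1. Car2 stands alone near 1053 TPM, 7 of the 10 members lie above the dashed line in both libraries, and Car2 and Car5b are the members whose intervals in the 2 libraries do not meet.

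The membrane-bound forms are given next. Car14, a transmembrane enzyme described on the surface of adult mouse hepatocytes (ENSMUSG00000038526.10, chromosome 3, 95897768 to 95904691, minus strand), had 20.5 TPM in replicate 1 and 22.8 TPM in replicate 2, on 807 and 797 estimated counts. Car4, held in the membrane by a lipid anchor and known from capillary walls (ENSMUSG00000000805.14, chromosome 11, 84957786 to 84966044, plus strand), had 9.94 and 11.5 TPM on 293 and 261 estimated counts. Replicate 2 was the higher for both, and the deposited intervals of the 2 libraries overlapped for each gene. Car14 exceeded Car4 2.01-fold. Car14 made up 33.8% ± 0.8 and Car4 16.8% ± 0.9 of the members' TPM without Car2.

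Car9, the transmembrane form induced by low oxygen (ENSMUSG00000028463.10, chromosome 4, 43506966 to 43513729, plus strand), had 1.55 TPM in replicate 1 and 1.17 TPM in replicate 2. Its estimated counts, 53.5 and 50.6, were closer than its TPM, because the deposited effective length was 1336 bases in replicate 1 and 1924 bases in replicate 2. The deposited posterior means of Car9 were higher, 2.30 and 2.05 TPM. Car12, a transmembrane form known from kidney (ENSMUSG00000032373.10, chromosome 9, 66713686 to 66766845, plus strand), had 0.29 and 0.15 TPM on 18 and 12 estimated counts, with posterior means of 0.47 and 0.42 TPM. Car9 exceeded Car12 4.64-fold, and Car14 exceeded Car9 15.0-fold. The 4 membrane-bound members together had 32.3 TPM in replicate 1 and 35.7 TPM in replicate 2, which was 3.05% ± 0.08 of the members' TPM.

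The mitochondrial forms were the lowest members of the family beside Car12. Car5a, known from adult liver mitochondria (ENSMUSG00000025317.7, chromosome 8, 121916126 to 121944904, minus strand), had 0.42 TPM in replicate 1 and 0.53 TPM in replicate 2, on 12.4 and 13.8 estimated counts. Car5b, the more widely expressed mitochondrial form (ENSMUSG00000031373.4, chromosome X, 163976822 to 164027997, minus strand), had 0.24 TPM on 21 estimated counts in replicate 1 and 0.03 TPM on 2 estimated counts in replicate 2. Its deposited intervals, 0.161 to 0.373 TPM and 0.00902 to 0.106 TPM, did not meet. Car5b and Car5a could not be ordered. Together they held 0.0552% ± 0.0117 of the members' TPM. In bulk tissue, fewer cells that express a gene and less RNA in each cell cannot be told apart, so these levels do not say how many cells carried either transcript.

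Car8 has the carbonic anhydrase fold without the catalytic zinc site, and is known from Purkinje cells, where it binds the receptor for inositol trisphosphate. Car8 (ENSMUSG00000041261.9, chromosome 4, 8143362 to 8239041, minus strand) had 1.27 TPM in replicate 1 and 1.49 TPM in replicate 2, on 123 and 126 estimated counts. Its level lay beside that of Car9, and which of them was higher differed between the libraries.

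Along the order of the 10 members, a gene was called apart from the next where each library placed it higher with separate deposited intervals, and where the log2 ratio averaged over the libraries was larger than its change between them. By this rule 5 of the 9 steps were apart: Car2 over Car1, Car14 over Car4 (2.01-fold), Car4 over Car3 (3.98-fold), Car3 over Car8 (1.84-fold) and Car9 over Car5a (2.53-fold). Car1 and Car14 differed 1.17-fold with overlapping intervals. Car8 and Car9, Car5a and Car12, and Car12 and Car5b were not apart either. In replicate 2 the TPM of Car9, 1.17, lay below its own deposited interval of 1.31 to 2.88 TPM. The separate intervals of Car9 and Car5a thus belong to the posterior mean and not to that TPM. The step from Car9 to Car5a was no longer called with exact Poisson intervals of the counts (4 of 9 steps). With the deposited posterior mean, the average over the quantifier's fitted model, Car9 rose above Car8 and the step from Car3 was lost, which also left 4 steps. With 2 values the smallest p of an exact sign-flip test is 0.5, and orders are therefore given without one.

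The other carbonic anhydrase genes were all low. Of the 6, Car13 and Car7, the latter a cytosolic form known from brain (1.64 ± 0.20 TPM), were detected. Car11 (0.74 ± 0.14 TPM) and Car10 (0.18 ± 0.06 TPM), secreted-type proteins without the catalytic site, were below 1. Car15, a lipid-anchored form, had 0.545 ± 0.064 TPM, and 50.6% of the 100-base windows of its transcripts were shared with Gm20518, so its own level is uncertain. Car6, the secreted enzyme of saliva, had 0 counts in replicate 1, and 1 count in replicate 2. By counting alone a 0 there allows a TPM of up to 0.113, while the deposited interval reached 0.354 TPM. With all 16 genes as the total, Car2 still held 93.8% of the family's TPM.

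Car1 has been described with a distal start used in red cells and a proximal start used in colon. Of its 3 transcripts in the tables, Car1-203 and Car1-202 begin at the distal start (first exon of Car1-203 at 14808302 to 14808365) and Car1-201 at the proximal start (first exon at 14778348 to 14778459). The starts lie 29906 bases apart, and 65 bases of Car1-203 and 51 bases of Car1-201 are not in the other transcript. Car1-203 carried 94.2% of the gene's TPM in replicate 1 and 93.1% in replicate 2, and Car1-202 carried 5.84% and 6.86%. Car1-201 was listed at 0 counts in both libraries. All of the counts assigned to Car1 went to transcripts of the distal start. The short stretch of bases that separates Car1-201 limits this: its deposited interval reached 3.11 TPM in replicate 1 and 2.20 TPM in replicate 2, with a posterior mean of 3.92% and 3.11% of the gene.

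**Figure D2:**
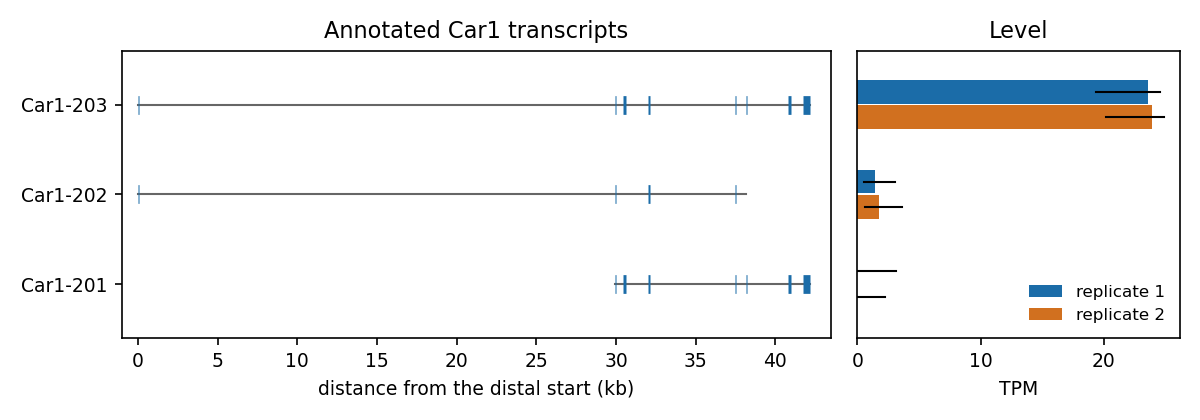
Left, the 3 annotated Car1 transcripts with exons as blocks against distance from the distal start in kilobases; right, TPM of each transcript, with a bar for each library and lines for the deposited intervals. The bars of Car1-203 stand near 24 TPM in both libraries and those of Car1-201, from the proximal start, are at 0.

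The main transcript, the one with the highest deposited isoform percent, was the same in both libraries for 7 of the 7 detected members. Car2-201, the full-length coding transcript, carried 97.1% of Car2 in replicate 1 and 97.8% in replicate 2, and a retained-intron form carried 2.22% and 1.80%. Car14-201 carried 88.3% and 92.1%, and a retained-intron form of Car14 carried 9.71% and 6.71%. Car3-202, a retained-intron form of Car3, carried 12.8% and 5.79%, on only 10.3 and 4.8 estimated counts. Car3-203, another such form, was listed at 0 counts. By posterior mean Car3-202 carried 12.9% and 6.66%, and Car3-203 12.3% and 10.9%. Car8 had 1 transcript in the tables.

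Car4 and Car9 differed more between the libraries. Car4-201 carried 97.3% of Car4 in replicate 1 and 72.3% in replicate 2. Car4-202, a coding form that starts 6559 bases further along the gene, carried 0% and 25.0%, the latter on 41.1 estimated counts. The deposited intervals of Car4-202 overlapped, reaching 1.88 TPM in replicate 1 and running from 0.679 to 4.94 TPM in replicate 2. For Car9, Car9-207, a short form without a coding label, carried 36.2% in replicate 1 on 4.34 estimated counts and 0% in replicate 2. Neither difference was beyond the deposited intervals.

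**Figure D3:**
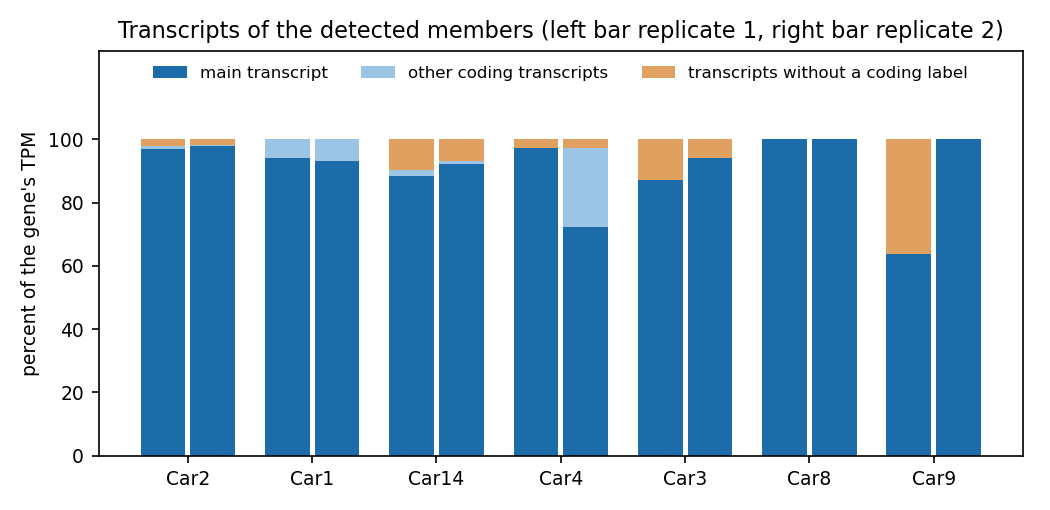
Percent of each detected member's TPM carried by its main transcript, by other coding transcripts and by transcripts without a coding label, with the left bar for replicate 1 and the right bar for replicate 2. The main transcript holds over 87% of Car2, Car1, Car14, Car3 and Car8 in both libraries, and the bars of Car4 and Car9 differ between the libraries.

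Some members share bases with other genes. Car14 overlaps Aph1a, a subunit gene of gamma-secretase on the opposite strand, over 445 of its 2543 exonic bases, and 13.7% of its 100-base windows occur in Aph1a. Aph1a had 20.8 TPM in replicate 1 and 21.2 TPM in replicate 2, close to Car14. The sources used here do not say whether counting used the strand, so reads of the overlap could belong to either gene. Car5a shared 9.93% of its windows with BC048644, Car1 2.57% with Gm5843 and Car9 2.42% with Gm12454. On the opposite strand, Gm12454 (1.77 and 1.51 TPM) covers 214 of the 2304 exonic bases of Car9. BC048644 (0.18 and 0.27 TPM) covers 314 of the 1339 exonic bases of Car5a. Gm20388 (4.92 and 2.02 TPM) also lies opposite Car5a, over 28779 bases, with 0 exonic bases shared. The same doubt about the strand holds for Car9 and Car5a. Car2, Car3, Car4, Car5b, Car8 and Car12 shared 0%.

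Between the pools, estimated counts were scaled with TMM factors and compared as log2 ratios of replicate 1 over replicate 2. Intervals here are 95% exact binomial intervals and cover counting error only. Only Car5b of the 10 members was at least 2-fold apart. Over the 16607 genes whose mean count was at least 10, 4.37% were at least 2-fold apart, 2.91% higher in replicate 1 and 1.46% higher in replicate 2. Car5b had a log2 ratio of 2.99 (1.25 to 6.42), a fold of 7.96. As a ratio of TPM with the pseudocount of 0.1 it was 1.39. Of the 1507 genes with a mean of 10 to 20 counts, where Car5b lies, 26.7% were at least 2-fold apart and 16.4% were so with replicate 1 higher. In that band 17 genes, or 1.13%, had a ratio as high as that of Car5b, and 26, or 1.73%, were as far apart in either direction. Car5b was the most extreme of the 10 members and entered the band only through its counts in replicate 1. These shares are therefore no test of Car5b. X-linked protein-coding genes as a whole had a median log2 ratio of -0.03 (504 genes), beside -0.01 over 14418 protein-coding genes. The X-linked Xist had a log2 ratio of 0.44 and the Y-linked Ddx3y one of -0.30. The part of the sex mix of the pools in the ratio of Car5b was not tested.

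The other 9 members were close in the 2 pools. Car2 had a log2 ratio of -0.12 (-0.14 to -0.10), which was beyond counting error and less than the SD of 0.13 over protein-coding genes with 1000 or more counts. For Car1 the ratio was 0.06 (-0.10 to 0.22), and for Car14 -0.09 (-0.24 to 0.05). For Car4 the count ratio was 0.05 (-0.19 to 0.30), whereas its TPM ratio was -0.21, with effective lengths of 1142 bases in replicate 1 and 1005 bases in replicate 2. Car8 (-0.15), Car3 (-0.17), Car5a (-0.26), Car9 (-0.03) and Car12 (0.45) had intervals that included 0. The median over the 10 members was -0.06.

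**Figure D4:**
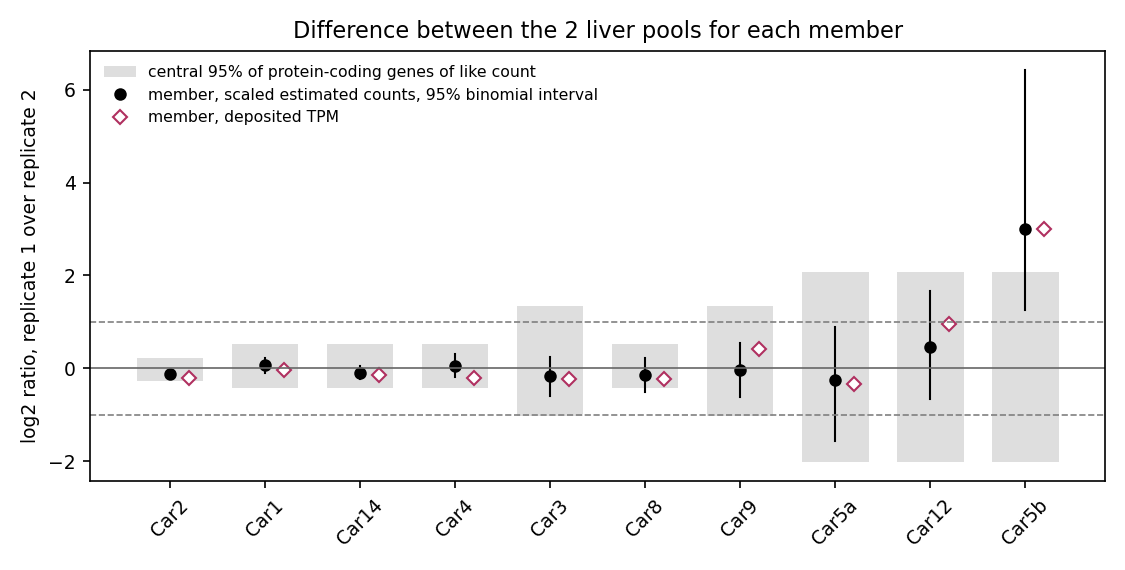
Log2 ratio of replicate 1 over replicate 2 for each member, with scaled estimated counts as filled points and their 95% binomial intervals, deposited TPM as open diamonds, and grey boxes for the central 95% of protein-coding genes of like count. Car5b, at 2.99, is the only member outside the dashed lines at 2-fold, and its interval begins inside the grey box.

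The liver label was held against marker genes, beside 56.6% of all protein-coding genes detected by the same rule. All 8 hepatoblast markers and 7 of the 7 red cell markers found were detected, as were all 6 endothelial, 6 mesenchyme and stellate, and 5 macrophage markers. Of the stomach and kidney markers, Gif, Atp4b and Umod were listed at 0 in both libraries, and 3 of 6 were detected, Barx1 highest at 17.1 TPM. Of the skeletal muscle markers 4 of 6 were detected, led by Tnnt1 (20.7 TPM), with Acta1 at least 2-fold higher in replicate 1 and Myh3 in replicate 2. Of the neural markers 3 of 4 were detected, led by Gap43 (16.3 TPM). All 8 heart muscle markers were higher in replicate 1, 7 of them at least 2-fold, and their summed TPM was 333 in replicate 1 and 158 in replicate 2. In replicate 1 and replicate 2 in turn, red cell markers summed to 968 and 1148 TPM, hepatoblast markers to 9826 and 10987 TPM, and macrophage markers to 131 and 137 TPM. The sum of endothelial markers was higher in replicate 1, with 219 and 215 TPM, as was that of mesenchyme and stellate markers, with 504 and 490 TPM. Egfl7 (139 and 130 TPM) and Col1a1 (169 and 153 TPM) weighed most in these sums. Their lists had no shared direction. Pecam1, Cdh5 and Kdr, and Col3a1, Des, Pdgfrb and Lhx2, had a higher TPM in replicate 2. Car2 was higher in replicate 2. Spike-ins took 14.6% of TPM in replicate 1 and 11.1% in replicate 2. By itself, a smaller spike-in share raises the TPM of every mouse gene. The part of the marker shifts in the members' differences was not tested.

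The genes that work with these enzymes were read from lists. Counts of detected genes in these lists stand beside 56.6% of all protein-coding genes detected by the same rule. Of 18 genes listed as bicarbonate transporters 9 were detected, with a median of 1.09 ± 0.07 TPM. Slc4a1, the anion exchanger of red cells (165 ± 27 TPM), was followed by the widely expressed exchanger Slc4a2 (15.5 ± 0.1 TPM), and the sulfate transporters Slc26a1 (10.2 ± 1.9 TPM) and Slc26a2 (9.55 ± 1.14 TPM). Below a TPM of 1 in both libraries were 8: Slc4a5, Slc4a10, Slc4a11, Slc26a4 and Slc26a7, and, listed at 0, Slc4a9, Slc26a3 and Slc26a9. Car2 exceeded Slc4a1 6.42-fold, while Car1 was 6.43-fold lower than Slc4a1. Of the 5 gas channel genes 3 were detected: Rhag, the red cell Rh-associated channel (135 ± 14 TPM), Rhbg (14.2 ± 2.1 TPM) and the water channel Aqp1 (5.50 ± 0.81 TPM). Rhcg had 0.04 TPM in each library. Car2 exceeded Rhag 7.82-fold and Aqp1 188-fold.

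Proton and lactate export was represented by 18 genes, of which 12 were detected, at a median of 5.75 ± 0.49 TPM. Bsg, the chaperone of the lactate transporters (782 ± 34 TPM), Slc16a3, a lactate exporter (207 ± 16 TPM), Slc9a3r1, a scaffold of membrane transporters (93.4 ± 5.5 TPM), and Atp6v1b2, a subunit of the proton pump (83.3 ± 12.6 TPM), led. The sodium-proton exchangers Slc9a2, Slc9a3 and Slc9a4 were listed at 0. Slc9a5, Slc9a7 and Slc16a8 were also below a TPM of 1. The receptor-type phosphatases Ptprg and Ptprz1, whose outer part carries a carbonic anhydrase-like domain, had 6.42 ± 0.74 and 0.10 ± 0.03 TPM.

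Of 10 genes listed as bicarbonate-using enzymes, Gmps among them, 8 were detected, and the median of the list was 15.2 ± 1.8 TPM. Cad, which begins pyrimidine synthesis, had 47.9 ± 4.7 TPM, and Gmps, a guanine nucleotide enzyme that takes its nitrogen from glutamine and stands in this list without being a known user of bicarbonate, 43.0 ± 7.8 TPM. Mccc2 (22.8 ± 2.8 TPM) and Mccc1 (16.01 ± 0.82 TPM), the subunits of a leucine-degrading carboxylase, came next. Cps1, the first enzyme of the urea cycle, had 0.09 ± 0.07 TPM and Acacb, the acetyl-CoA carboxylase of the mitochondrial surface, 0.82 ± 0.23 TPM. Pcx, the pyruvate carboxylase served by mitochondrial bicarbonate, exceeded Car5b 72.4-fold. That fold is rough: the log2 ratio of Car5b to Pcx was -5.36 in replicate 1 and -6.99 in replicate 2, where Car5b had 2 estimated counts. Car5a exceeded Cps1 3.12-fold, a step that was not called on estimated counts in place of TPM.

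Each of the 14 genes listed as oxygen-responsive was detected, and their median was 19.0 ± 2.0 TPM. The list mixes oxygen-sensing factors and their regulators with genes they act on, so detection of all 14 does not measure a response to oxygen. Ldha, a lactate dehydrogenase subunit, had 2875 ± 267 TPM, Pgk1, a glycolytic kinase, 444 ± 52 TPM, Bnip3, a mitophagy receptor, 164.0 ± 15.8 TPM and Slc2a1, a glucose transporter, 126 ± 8 TPM. Ldha exceeded Car9 1982-fold. The lowest of the 14, Vegfa, a growth factor for blood vessels named here after its value was seen, had 3.12 ± 0.59 TPM, beside 1.36 ± 0.27 TPM for Car9. Of the 14 pairs of genes compared, 13 were called apart by the rule used for the steps, and Car5b with Car5a was the exception.

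**Figure D5:**
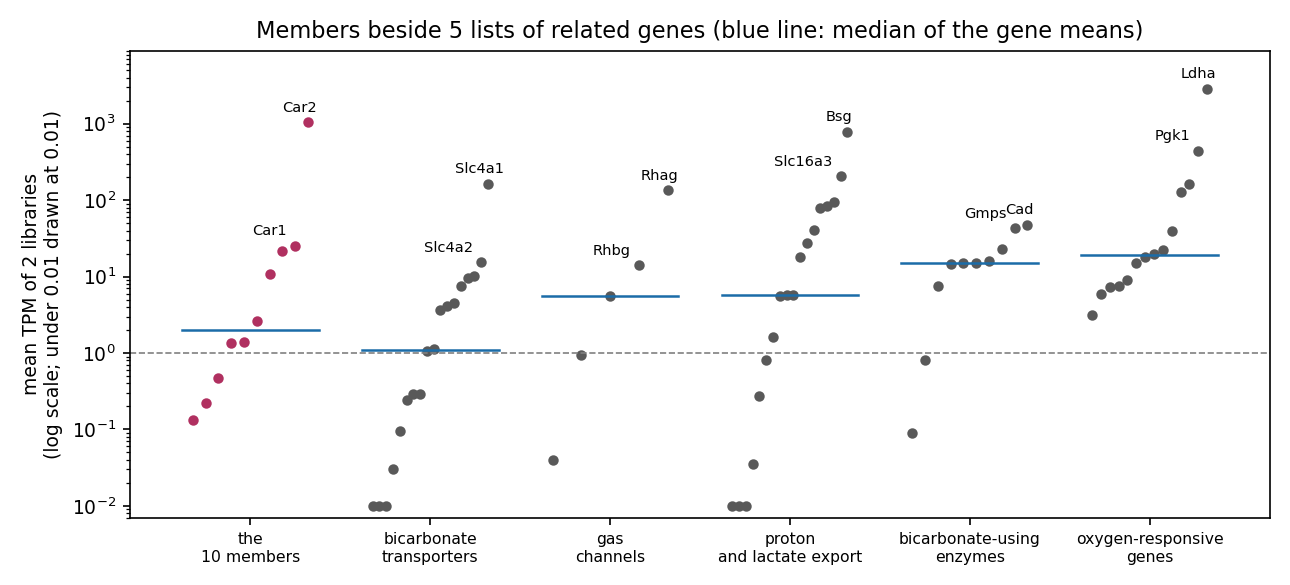
Mean TPM of 2 libraries (log scale, values under 0.01 drawn at 0.01) for the 10 members and for 5 lists of related genes, 1 point per gene, with the blue line at the median and the dashed line at a TPM of 1. The members span from Car5b at 0.135 TPM to Car2 at 1053 TPM, and all 14 oxygen-responsive genes lie above the dashed line.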

How the data were processed

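Gene and transcript tables of each library were read. Per the file headers, the authors deposited estimated counts, effective length, TPM, FPKM, posterior means, interval bounds (signal on the TPM and FPKM scales) and the percent of each gene's TPM per transcript. The interval level is not given, and the bounds centre on the posterior mean, so a TPM can lie outside its interval. The TPM of Car2 lies above its interval in both libraries. In replicate 2 the TPM of Car9 (1.17, interval from 1.31) and of Car12 (0.15, interval from 0.168) lies below it. Per the labels the assembly is mm10, and the deposited text notes name GENCODE M4. Columns are those RSEM writes, but the sources used here name no aligner or quantifier. Estimated counts as deposited by the authors totalled 34344230 in replicate 1 and 31477397 in replicate 2, with 31721267 and 29750192 on mouse genes. Spike-ins held 14.6% and 11.1% of TPM.

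Symbols, classes and coordinates came from GENCODE M21 on GRCm38, which matched 42462 of 43346 genes. The red cell marker Ahsp was not matched. The members' 36 transcripts had the same length in M21 as deposited. Estimated counts were rounded for TMM factors (edgeR 4.0.16, R 4.3.3) and DESeq2 1.42.0 size factors. Pseudocounts were 0.5 counts for count ratios between libraries, and 0.1 TPM for pairs and for the TPM ratios between libraries in the text. The TMM scaling and the log2 ratios were tested on simulated data. Other steps ran in Python 3.11.15 with scipy 1.17.1 and pandas 2.3.3.

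All members, the other family genes, all pair genes, the 4 highest genes of each list and its genes below a TPM of 1 in both libraries could be named. Members and lists were chosen with earlier results of these data known. The motifs, Xist and Ddx3y, the set of X-linked genes and the 100-base windows were chosen after the data were seen. Reads carry no molecular identifiers, so intervals and floors (3 counts for a 0) cover counting error only. Alternatives were mouse-gene TPM, FPKM, posterior means, other minimum levels, other scaling and leaving out each library.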

Additional observations from a re-analysis of the deposited data

How the results depend on the processing

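The median member level of 2.00 TPM became 2.29 over mouse genes only, 1.47 as FPKM and 2.50 as the posterior mean, and 1.98 to 2.17 with 1 library left out. At a TPM of 5 or more 4 members were detected in place of 7. By TPM the share of Car2 was 94.3%, of cytosolic members 96.8%, of Car8 0.123% and of membrane-bound members 3.05%. On estimated counts the share of Car2 was 95.4%, of cytosolic members 97.1%, of Car8 0.282% and of membrane-bound members 2.60%. With all 16 family genes the share of Car2 was 93.8% and of cytosolic genes 96.7%. With the posterior mean, an alternative chosen after seeing the data for these shares, cytosolic members held 96.6%, membrane-bound members 3.23% and mitochondrial members 0.0746%. Genes at least 2-fold apart were 21.8% with no minimum count and 0.265% where the mean count was at least 100. With a pseudocount of 1 TPM the log2 ratio of Car5b to Pcx moved from -6.18 to -3.83, that of Car5a to Cps1 from 1.64 to 0.44 and that of Car12 to Car9 from -2.21 to -0.95, as a larger pseudocount shrinks folds of low genes. FPKM and TPM over mouse genes only rescale all genes of a library by the same factor. Shares of estimated counts leave out the correction for transcript length. The cause of the remaining shifts was not tested. The log2 ratio between the libraries changed sign from scaled counts to TPM for Car1 (0.06 to -0.04), Car4 (0.05 to -0.21) and Car9 (-0.03 to 0.38), none of which was called 2-fold apart, and over mouse genes only Car1 was at 0.02. The count of members 2-fold apart stayed at 1 under the alternatives run for it. Depth limits Car5a, Car12 and Car5b, whose levels rest on 2 to 21 estimated counts in a library. No paired analysis was possible because both libraries belong to 1 group.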
